A study of Sus scrofa with 34 samples.

Results

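The effect of a phytogenic feed additive (PFA) was compared between the ileum and the liver of the same piglets. All pigs with a library from both tissues were taken, which gave 20 of the 34 libraries of the series and 10 of its 24 pigs. Control pigs 71, 80, 92, 100 and 110 ate a basal diet, and pigs 75, 95, 107, 134 and 138 ate the basal diet with PFA (Digestarom), a blend of plant compounds with menthol, methyl salicylate and carvacrol beside the essential oils of caraway and oregano. They were crossbred weaned piglets sampled on day 28 of feeding, and none of these groups received the oxidized oil used elsewhere in the series. All pigs of a diet shared 1 pen, and an effect of the pen cannot be told apart from one of the diet. By Y-linked counts 2 of 5 control and 3 of 5 PFA pigs were male, and both libraries of a pig gave the same answer in 10 of 10 pigs.

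The ileum is the last part of the small intestine, where bile acids are taken back and much of the intestinal immune tissue lies. Its venous blood drains through the portal vein to the liver, which makes bile acids, cholesterol and fatty acids and clears foreign compounds. Plant compounds taken up higher in the gut can reach the liver by this vein without passing the ileum, and the same pathway can be under different control in the 2 tissues.

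Between 18772230 and 24338165 read pairs per ileum library and between 23109323 and 36403616 per liver library were counted on genes. The 10 most abundant genes took 12.5 to 16.2% of these pairs in the ileum and 25.2 to 34.8% in the liver. The tissue labels were checked on marker genes, given here as CPM, read pairs relative to the scaled library total, on 1 scale for all 20 libraries. FABP2, the fatty acid binding protein of enterocytes, was at 1270 to 2767 CPM in the ileum, and in the liver it had a level above 0 only in control 71, at 0.0645 CPM. ALB, the albumin gene of hepatocytes, was at most 0.147 CPM in the ileum. Expression levels are those of whole tissue, where fewer cells of a type and less RNA per cell cannot be told apart.

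Some libraries stood apart in ways the diets do not define. The ileum of control 80 held 451 CPM over 9 B cell genes, against at most 19.5 CPM in the 5 PFA ileum libraries and a median of 17.9 CPM over the control ileum. The ileum of PFA 95 held 75.2 CPM over 4 markers of mesothelium and fat, against 6.11 to 17.3 CPM in the control ileum. Most of this was the fat marker ADIPOQ, at 53 CPM against at most 0.3 CPM in any other ileum library. The dependence of expression on the GC content of genes also differed between libraries. A gene with 10 percentage points more GC was higher by 0.37 on the log2 scale in the ileum of PFA 134 and lower by that much in the ileum of PFA 138, relative to the other ileum libraries. The liver of PFA 95 had a slope of -0.37. Liver libraries whose titles carry the form PL came from 3 PFA pigs and 1 control pig. They had 5.22 to 7.73 read pairs with several alignments per 100 on genes, against 3.02 to 3.73 in the other livers of these pigs.

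The first question was whether PFA changed any gene differently in the 2 tissues. The PFA by tissue interaction was fitted with the pig as a block, and it is positive where PFA minus control was higher in the ileum than in the liver. No gene passed an adjusted p of at most 0.05 in edgeR's quasi-likelihood test (0 of 14982, or 0%), with a smallest adjusted p of 0.930. At an unadjusted p under 0.05 there were 720 genes (4.81%), of which 443 (2.96%) were positive and 277 (1.85%) negative. DESeq2 called 3 genes (PON3, NOTUM and an unnamed one). Each tissue alone also gave no called gene in edgeR. In the ileum 0 of 14300 genes were called (0%), with 401 genes at an unadjusted p under 0.05 (2.8%), 221 higher (1.55%) and 180 lower (1.26%), and DESeq2 called 4 genes (PRR15, ANPEP, UCHL5 and ENSSSCG00000038068). In the liver of the same pigs 0 of 13288 genes were called (0%), with 1074 genes at an unadjusted p under 0.05 (8.08%), 314 higher (2.36%) and 760 lower (5.72%), and DESeq2 again called 4 genes (RAI2, METTL17, ID1 and ENSSSCG00000038068).

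The unadjusted counts rested on single pigs. The ileum count was 2027 without PFA 134, 1008 without control 110 and 257 without PFA 95, and the interaction count was 471 without PFA 75. All values below are therefore descriptions of genes that did not pass the main test.

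The interaction with the smallest p was that of PON3, which encodes paraoxonase 3, a lactonase carried on high-density lipoprotein (ENSSSCG00000029515, Sscrofa11.1 chromosome 9, 74983040 to 75017947). In the ileum PON3 was at 0.282, 0.0791, 0.643, 0.441 and 0.643 CPM in control pigs 71, 80, 92, 100 and 110. In PFA pigs 75, 95, 107, 134 and 138 it was at 1.11, 4.34, 1.24, 1.13 and 2.02 CPM. Every PFA ileum lay above every control ileum, at levels that rest on 3 to 18 read pairs per control library and 33 to 148 per PFA library. In the liver PON3 was at 229 to 556 CPM in the control pigs and at 140 to 831 CPM with PFA, and the groups overlapped. The PFA effect on the log2 scale was 2.26 (SE 0.55) in the ileum and -0.00 (SE 0.41) in the liver. The interaction was 2.35 (SE 0.41), with an unadjusted p of 6.5e-05. PON3 was 1 of the 3 genes called by DESeq2, with an adjusted p of 0.00389.

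NOTUM, a secreted enzyme that inactivates Wnt proteins, differed in the other direction (ENSSSCG00000039013, chromosome 12, 1033814 to 1044412). In the ileum it was at 1.18, 1.21, 1.29, 1.39 and 0.572 CPM in the control pigs and at 0.201, 0.323, 0.225, 0.579 and 0.354 CPM in the PFA pigs, both in the order given above. The 2 groups touched only at control 110 and PFA 134. In the liver NOTUM was at 24.4, 74.4, 33.9, 22.1 and 25.7 CPM in the control pigs and at 47.9, 22.8, 27.9, 68.8 and 56 CPM with PFA, with overlap. The effect was -1.71 (SE 0.34) in the ileum and 0.28 (SE 0.38) in the liver, and the interaction was -2.11 (SE 0.41), with a DESeq2 adjusted p of 0.0378. The liver value was 0.749 without control 80. The third gene that DESeq2 called has no symbol (ENSSSCG00000034697) and an adjusted p of 0.0393.

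A second kind of interaction came from genes whose levels differed between diets in the liver values and hardly in the ileum values. PFA and control pigs did not overlap in the liver for 244 of 12731 genes kept in both tissues (1.92%) and in the ileum for 59 (0.463%). ID1, a helix-loop-helix inhibitor and target of BMP signaling, was at 22.6, 9.16, 21.1, 12.7 and 7.16 CPM in the control livers and at 49.1, 38, 41.4, 34 and 28.7 CPM in the PFA livers. Its ileum levels overlapped, at 4.79 to 12.2 CPM in control pigs and 5.17 to 16.4 CPM with PFA. The ID1 effect was 1.37 (SE 0.29) in the liver and -0.03 (SE 0.34) in the ileum. LMAN2L, a lectin-like protein of the early secretory pathway, was lower with PFA in all livers, at 32.3 to 40.6 CPM against 44.5 to 62.2 CPM, while the ileum gave 21 to 26.3 CPM against 18.7 to 22.1 CPM. The phosphoinositide phosphatase gene MTMR14 and the centrosomal gene CEP85 had the same form, with liver effects of -0.72 (SE 0.18) and -0.76 (SE 0.20) and ileum effects of -0.02 and 0.04. SDC1, the heparan sulfate proteoglycan syndecan 1, was higher in all PFA livers, at 89.7 to 124 CPM against 62.1 to 87.8 CPM, with an effect of 0.43 in the liver and -0.26 in the ileum. SLC22A13, a transporter of organic anions, gave -1.43 in the liver and 0.57 in the ileum, on at most 31 read pairs in any liver library.

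In a few genes the effects in the 2 tissues had opposite signs, each with an unadjusted p under 0.05. LPCAT3, which loads polyunsaturated fatty acids into phospholipids, was at 43.9 to 65.9 CPM in the control ileum and 62.2 to 75.3 CPM with PFA, and at 95.1 to 122 CPM in the control liver. Of the PFA livers, 3 lay below that range at 68.2, 77.2 and 93.8 CPM and PFA 75 and PFA 95 lay within it. Its effects were 0.33 (SE 0.13) in the ileum and -0.35 (SE 0.13) in the liver. FRMD1 gave -1.07 (SE 0.41) in the ileum and 1.02 (SE 0.33) in the liver. RUSC1, TIMMDC1 and the unnamed ENSSSCG00000037470 were the other genes of this form, and they were chosen after their values were seen. RUSC1 had effects of 0.56 in the ileum, on at most 23 read pairs in any library, and -1.21 in the liver. TIMMDC1, an assembly factor of respiratory complex I, had effects of 0.29 and -0.60. Its liver level was 31.6 CPM in control 80, against 13.07 to 19.09 CPM in the other control livers and 10.75 to 14.32 CPM with PFA.

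**Figure D1:**
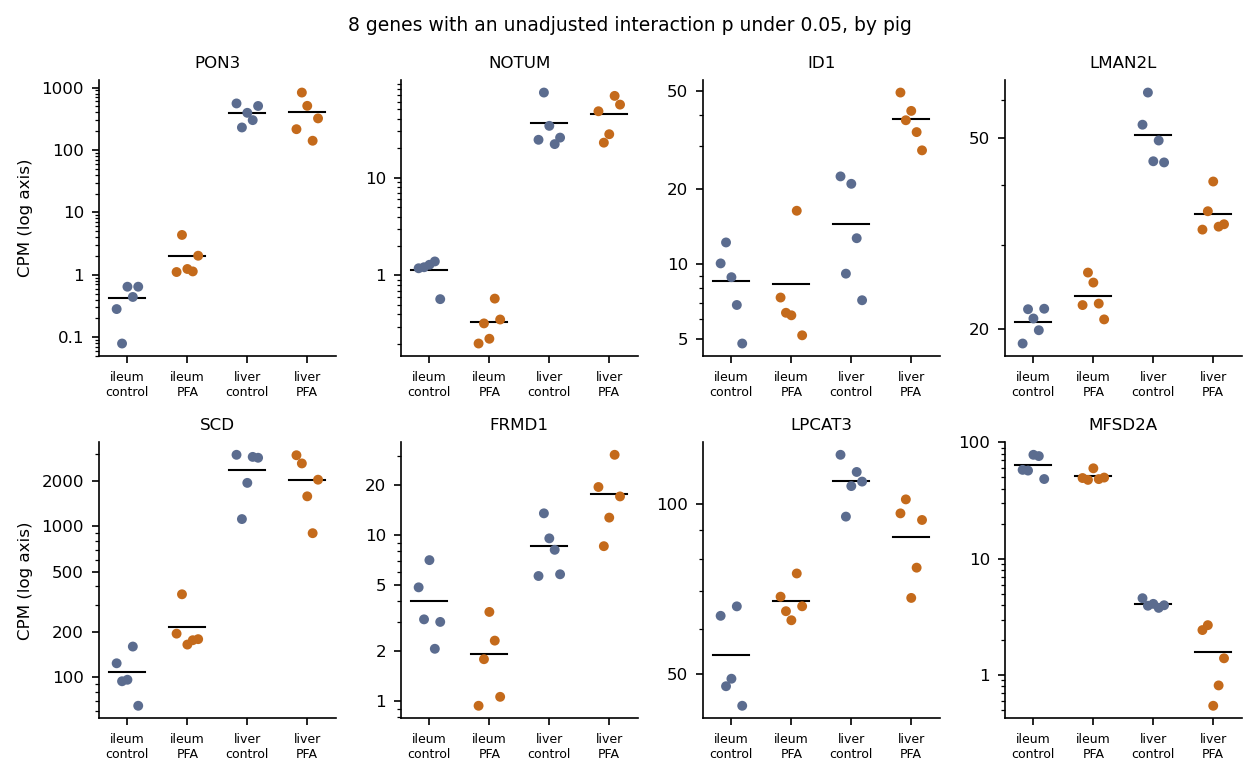
CPM (log axis) of PON3, NOTUM, ID1, LMAN2L, SCD, FRMD1, LPCAT3 and MFSD2A in the ileum and liver of each pig, with control and PFA pigs as points and the group mean as a line. PON3 and SCD separate the diets in the ileum, ID1, LMAN2L and MFSD2A separate them in the liver, and the direction of FRMD1 and LPCAT3 turns between tissues.

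The next question was how far the PFA effects in the 2 tissues went together over genes. Both effects come from the same 10 pigs, so a pig that differs in both tissues moves both effects, and the genes are not independent. Over 12731 genes kept in both tissues the log2 effects had a Pearson r of 0.0848 and a Spearman rho of 0.0833, and 6970 genes (54.7%) had the same sign. Without PFA 95 the values were -0.00562, -0.0649 and 48.6%. The rho was also below 0 without control 80 (-0.00497, 51.2% of the same sign) and without control 92 (-0.00528, 51.7%), so the weak positive relation rested on single pigs. Without PFA 134 the rho was 0.198 and 59.8% had the same sign. In the 10368 genes with a GC value the rho was 0.0943, and it was 0.0386 with 51.7% of the same sign after a correction for GC content.

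Among the 340 genes at an unadjusted p under 0.05 in the ileum (2.67% of those kept in both tissues), 227 (66.8%) had the same sign in the liver. Among the 1017 genes at that p in the liver (7.99%), 596 (58.6%) had the same sign in the ileum. Without PFA 95 these shares were 53% and 44.1%. In genes with a GC value they were 63.2% and 62.8%, and 50.5% and 51.7% after the GC correction. The lists shared 28 genes, or 8.24% of the ileum list and 2.75% of the liver list. These shares are near the 7.99% and 2.67% of all genes, so the overlap is not a result about its members, which are given below as descriptions. Of these, 17 were lower and 6 higher in both tissues, and 5 were opposite.

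**Figure D2:**
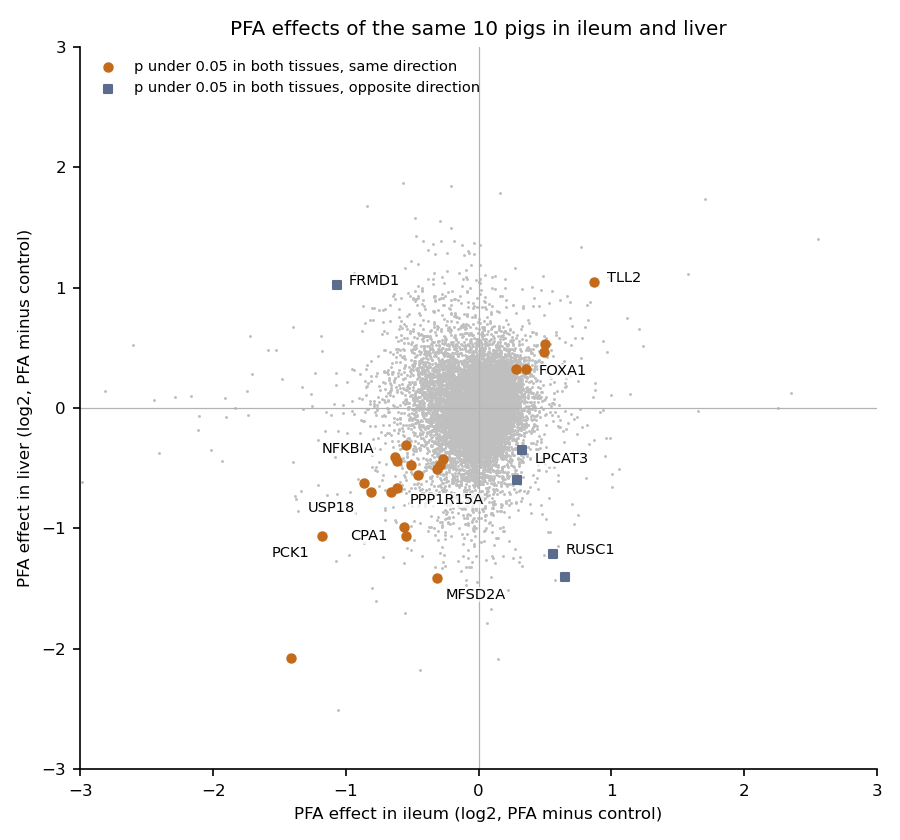
PFA effect in the liver against PFA effect in the ileum (log2 fold change, PFA over control) for 12724 genes, with the genes at an unadjusted p under 0.05 in both tissues marked, 27 of them inside the axes. The cloud shows no diagonal (Spearman rho 0.0833), and most marked genes lie at the lower left.

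The effect common to both tissues was tested by limma-trend on the mean of the ileum and liver log2 CPM of each pig. None of 12731 genes was called (0 of 12731, or 0%), with a smallest adjusted p of 0.781. At an unadjusted p under 0.05 there were 774 genes (6.08%), 329 higher (2.58%) and 445 lower (3.5%). By edgeR without the replicate block, which counts both libraries of a pig as independent, 1 gene was called. No gene separated all PFA pigs from all control pigs in both tissues (0 of 12731, or 0%).

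NFKBIA, the NF-kB inhibitor that NF-kB itself induces, was lower in both tissues (ENSSSCG00000001952, chromosome 7, 64508119 to 64510754). In the ileum it was at 41.1, 52.5, 53.2, 39.3 and 39 CPM in the control pigs and at 29.9, 28.5, 35.8, 28.4 and 23.8 CPM with PFA, without overlap. In the liver it was at 77.5, 79.1, 103, 64 and 65.7 CPM in the control pigs and at 54.3, 77.3, 43, 54.8 and 62.1 CPM with PFA, where PFA 95 lay among the controls. Effects were -0.61 (SE 0.13) and -0.44 (SE 0.17), and the common effect was -0.52 (SE 0.11).

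USP18, the protease that removes ISG15 from proteins and dampens interferon receptor signaling, was chosen after its values were seen. In the ileum it was at 35.5, 33.9, 18.9, 40.9 and 14.2 CPM in the control pigs and at 21.2, 12, 14.7, 16.5 and 16.6 CPM in the PFA pigs. In the liver it was at 18.7, 21.4, 20.9, 13.4 and 17.1 CPM in the control pigs and at 21.2, 7.24, 9.38, 10.8 and 9.07 CPM in the PFA pigs. In both tissues the groups overlapped, and PFA 75 had the highest USP18 of the PFA pigs. Effects were -0.81 (SE 0.27) in the ileum and -0.69 (SE 0.26) in the liver. ISG15 itself, also chosen after the fact, had effects of -1.74 (SE 0.68) in the ileum and -0.06 (SE 0.60) in the liver.

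Promoter sequence is shown for these genes because each belongs to a list described below, and because the letters that interferon and NF-kB factors recognise can be read in it. The stretches run from 250 to 91 bases before the gene start in RefSeq (Sscrofa11.1, plus strand), chr5:70183071-70183230 for USP18, chr6:63362951-63363110 for ISG15 and chr7:64507869-64508028 for NFKBIA. Capitals mark the interferon-stimulated response element (ISRE, searched on both strands as GAAA, any 2 bases and GAAA again) in the first pair and the kB motif in the last sequence.
USP18: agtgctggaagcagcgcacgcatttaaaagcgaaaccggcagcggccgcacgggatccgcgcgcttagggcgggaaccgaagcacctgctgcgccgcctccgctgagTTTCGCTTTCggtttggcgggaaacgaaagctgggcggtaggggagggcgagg
ISG15: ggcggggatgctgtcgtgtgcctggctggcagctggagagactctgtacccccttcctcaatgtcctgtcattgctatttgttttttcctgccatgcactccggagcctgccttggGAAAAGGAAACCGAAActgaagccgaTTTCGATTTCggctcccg
NFKBIA: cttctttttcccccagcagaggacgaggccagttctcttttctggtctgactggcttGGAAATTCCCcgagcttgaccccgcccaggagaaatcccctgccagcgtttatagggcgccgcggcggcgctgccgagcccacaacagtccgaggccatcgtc
The ISRE letters lay 143 to 134 bases before the start of USP18 and gave 3 overlapping or neighbouring matches between 134 and 99 bases before that of ISG15. The kB match of NFKBIA lay 193 to 184 bases before the start. In windows of 300 bases the ISRE letters were present in 420 of 13705 promoters (3.06%) and in 21 of 39 promoters of the interferon list (53.8%). The kB motif was present in 2199 promoters (16%) and in 14 of 28 of the NF-kB list (50%). A match describes letters only, and it was not tested whether any factor bound there.

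Other genes were lower in both tissues. JUN, a subunit of the transcription factor AP-1, had effects of -0.52 (SE 0.26) in the ileum and -0.79 (SE 0.23) in the liver. PPP1R15A, the stress-induced regulator of eIF2alpha dephosphorylation, gave -0.61 (SE 0.25) and -0.66 (SE 0.28). PCK1, the cytosolic PEP carboxykinase of gluconeogenesis, was at 11.8, 34.4, 69, 25.9 and 76.3 CPM in the control ileum and at 13.2 to 29.4 CPM with PFA. In the liver PCK1 was at 265, 1366, 946, 710 and 1488 CPM in the control pigs and at 245 to 599 CPM with PFA. Control 71 was lowest of the control pigs in both tissues, below the PFA range in the ileum and within it in the liver. Effects of PCK1 were -1.18 (SE 0.43) and -1.06 (SE 0.39). PPP1R15A and PCK1 were chosen after their values were seen.

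Of the genes with the smallest p of the common effect, MYO1A, a brush border myosin, and MFSD2A, a lysophospholipid transporter, were carried by the liver. MYO1A was at 0.984 to 2.25 CPM in control livers and 0.491 to 0.83 CPM in PFA livers. These levels rest on 18 to 41 read pairs per control liver and 7 to 16 per PFA liver. MYO1A had a liver effect of -1.18 (SE 0.32) and an ileum effect of -0.08 (SE 0.12). MFSD2A was at 3.78 to 4.58 CPM in control livers and 0.545 to 2.69 CPM in PFA livers, with effects of -1.41 (SE 0.37) in the liver and -0.31 (SE 0.14) in the ileum. ABCD4, a lysosomal transporter for vitamin B12, gave -0.63 in the ileum and -0.41 in the liver, and UNC93A gave -0.51 and -0.48. The pancreatic protease gene CPA1, chosen after its values were seen, was also lower in both. It was at 0.283 to 0.337 CPM against 0.339 to 0.592 CPM in the ileum, on at most 12 read pairs per PFA and 21 per control library. In the liver it was at 1.35 to 3.38 CPM against 1.62 to 6.77 CPM, with overlap. Of 6 pancreas markers 2 were in the files, and the other, PNLIP, was at 0 CPM in every library of both tissues.

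Among genes higher in both tissues, FOXA1, a pioneer factor of endoderm, was at 7.41 to 9.76 CPM in the control ileum and 9.75 to 11.8 CPM with PFA, and at 32.7 to 47.4 CPM in the control liver and 45.3 to 54.5 CPM with PFA. Its effects were 0.36 (SE 0.13) and 0.33 (SE 0.12). PEX11A, which drives peroxisome division and is a target of PPAR-alpha, was at 18.1 to 25.4 CPM in control livers and 25.7 to 37 CPM in PFA livers, without overlap. In the ileum PEX11A overlapped, at 7.38 to 11 CPM and 9.35 to 16.5 CPM, and its effects were 0.49 and 0.46. CENPN, a centromere protein, gave 0.50 and 0.53. These genes were chosen after their values were seen.

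The largest difference common to both tissues was in a gene with no symbol, ENSSSCG00000038068, also chosen after its values were seen. In the ileum it was at 0, 0.105, 0.965, 0.542 and 0.0357 CPM in the control pigs and at 0.067, 26.9, 33.7, 7.91 and 37.7 CPM in the PFA pigs. In the liver it was at 0, 0, 0.394, 0.6 and 0.0407 CPM in the control pigs and at 0.104, 32.6, 42.6, 28.1 and 34.2 CPM in the PFA pigs. It was therefore high in both tissues of 4 PFA pigs and near 0 in both tissues of PFA 75, so that each pig was either high or low and the diets overlapped. The effect was 6.06 (SE 1.25) in the ileum and 6.99 (SE 1.20) in the liver. DESeq2 called it in both tissues. Without the replicate block edgeR called it for the common effect (adjusted p of 0.0109), but that fit counts both libraries of a pig as independent. With the pig as the unit, limma-trend gave an adjusted p of 0.781 for the common effect.

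**Figure D3:**
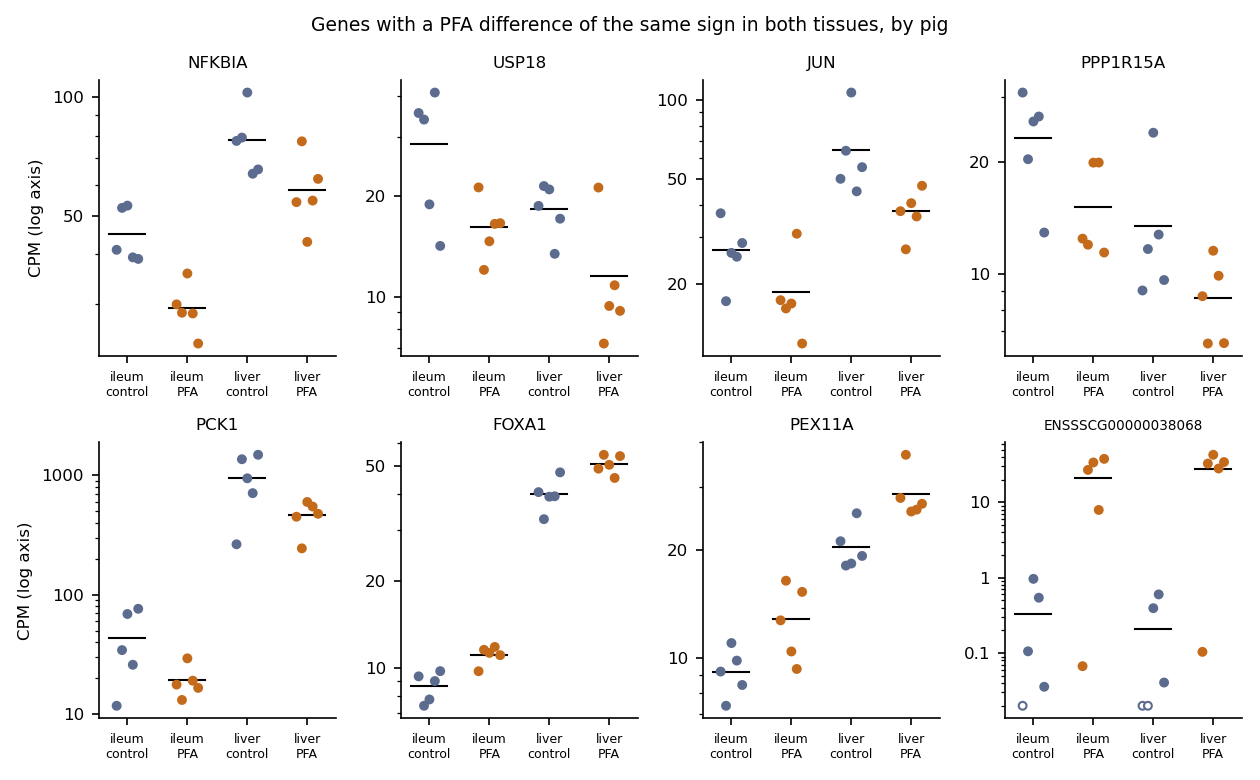
CPM (log axis) of NFKBIA, USP18, JUN, PPP1R15A, PCK1, FOXA1, PEX11A and ENSSSCG00000038068 in each pig's ileum and liver, with lines at group means and open circles for libraries with 0 counts, drawn at the foot of the axis. NFKBIA separates the diets in the ileum, PEX11A in the liver, and ENSSSCG00000038068 is high in both tissues of 4 PFA pigs and low in PFA 75.

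Genes that the study named for PFA in one tissue were followed into the other. PRR15 was at 21.1 to 24.6 CPM in the control ileum and 12.5 to 16.4 CPM with PFA, and it was at most 0.3 CPM in any liver, too low to be tested there. ANPEP, the brush border aminopeptidase N, was at 5508 to 6485 CPM in the control ileum and 3649 to 4656 CPM with PFA, while its liver levels overlapped at 555 to 822 CPM and 448 to 825 CPM. Its effects were -0.53 (SE 0.12) and -0.25 (SE 0.18). UCHL5, a deubiquitinase of the proteasome, gave 0.28 (SE 0.08) in the ileum, without overlap, and 0.27 (SE 0.20) in the liver, where the value was 0.0615 without PFA 95. DEF6 and ARHGEF28, both guanine nucleotide exchange factors, were lower in all PFA livers, with liver effects of -1.45 (SE 0.41) and -1.06 (SE 0.24). Their ileum effects were -0.01 (SE 0.21) and -0.20 (SE 0.26), and the sign of DEF6 in the ileum turned under 5 alternatives. CCL20, PLPPR2 and RF00231 were not among the genes with a symbol here and were not analysed.

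The 4 innate immune genes TRAF2, TOLLIP, GSDMD and IRF7 shared 1 pattern. With a GC content of 69.21, 67.89, 66.09 and 68.38% they are rich in GC, and in each the ileum of PFA 134 was far above the other PFA ileum libraries. TOLLIP, an inhibitor of Toll-like receptor signaling, was at 0.637, 1.03, 0.937, 6.48 and 0.92 CPM in the PFA ileum and at 1 to 5.44 CPM in the control ileum. In the liver it was at 19.6, 5.45, 8.07, 21.2 and 51.4 CPM with PFA and at 5.4 to 11.8 CPM in the control pigs. The TOLLIP effects were -0.47 (SE 0.67) in the ileum and 1.43 (SE 0.51) in the liver, and the interaction of -1.91 became -1.34 after the GC correction. Without PFA 134 the ileum effects were -1.68 for TOLLIP, -1.72 for TRAF2, -1.34 for GSDMD and -1.83 for IRF7. IRF7, which drives interferon induction, was at 4.97 to 47 CPM in the control ileum and 3.65 to 23 CPM with PFA, and its liver effect of 0.11 (SE 0.48) turned sign under 6 alternatives.

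The pathways were then described by gene lists, given as how many members had a higher or lower log2 effect and the median effect. For comparison, 46.7% of all 12731 genes were lower in the ileum and 48.1% in the liver, with medians of 0.0147 and 0.0129. No list member passed the test in edgeR in either tissue. The members given as examples, other than those the rules named, were chosen after their values were seen. The interferon, NF-kB and matrix lists follow gene sets that the study named from these same ileum libraries, so their direction there is not independent evidence.

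Among defence genes, 40 of 42 interferon-stimulated genes were lower in the ileum (median -0.358) and 29 in the liver (median -0.166). The lower effects in the ileum were clearest in ISG15 and in DHX58, an RNA sensor of the RIG-I family, at -1.06 (SE 0.38), while OAS2, an activator of RNase L, was lowest in the liver at -1.09 (SE 0.32). The mean log2 CPM of the list in the ileum was 6.44, 5.93, 5.79, 6.86 and 5.47 in the control pigs and 6.05, 5.59, 5.83, 5.50 and 5.62 with PFA. Control 71 and control 100 were above all PFA pigs, 2 other control pigs lay within the PFA range, and control 110 was lowest of all. The ileum median was -0.1 without control 100, and the liver median was -0.0455 without PFA 107 and -0.342 without PFA 75. With all 12 liver libraries of these diets the liver median was 0.0884, so the sign in the liver depended on the 2 pigs without an ileum library. Genes of the NF-kB list were lower in the ileum (24 of 28, median -0.142) and divided in the liver (13 lower, median 0.00447). RELB, a subunit of NF-kB, gave -0.84 in the ileum and -0.00 in the liver. In the MHC list 9 of 14 genes were lower in either tissue.

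Immediate early genes, which switch on within minutes of a stimulus, were mostly lower with PFA in both tissues. In the ileum 18 of 19 were lower (median -0.341) and in the liver 14 (median -0.551). CCN1, a matricellular growth factor target, gave -0.92 and -1.08, and DUSP1, a MAP kinase phosphatase, gave -0.44 and -0.68. The liver median was -0.129 without control 92, whose mean of 4.62 log2 CPM was above all other livers. JUNB went the other way in the liver, with effects of -0.87 (SE 0.51) in the ileum and 0.85 (SE 0.40) in the liver. Its interaction of -1.79 became -1.6 after the GC correction. Glucocorticoid-responsive genes were lower for 14 of 17 in the ileum and 11 in the liver, among them PCK1, DUSP1 and ANGPTL4, a lipoprotein lipase inhibitor.

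Genes of lipid synthesis were mostly higher with PFA in the ileum. In the cholesterol list 20 of 24 genes were higher in the ileum (median 0.209) and 10 in the liver (median -0.0429). IDI1, the isopentenyl diphosphate isomerase, gave 0.42 in the ileum and 0.01 in the liver, and HMGCS1, the cytosolic HMG-CoA synthase, gave 0.37 and -0.01. INSIG1, the sterol sensor that holds back SREBP, was at 316, 470, 394, 622 and 504 CPM in the control livers and at 234, 232, 445, 232 and 228 CPM with PFA, where only PFA 107 lay among the controls. INSIG1 effects were 0.12 (SE 0.17) in the ileum and -0.77 (SE 0.24) in the liver, with an interaction of 0.89 (SE 0.27). In the fatty acid list 11 of 13 genes were higher in the ileum (median 0.234) and 8 in the liver (median 0.0808). SCD, the stearoyl-CoA desaturase, was at 124, 94.3, 96.5, 160 and 64.9 CPM in the control ileum and at 195, 355, 165, 176 and 179 CPM with PFA, without overlap. In the liver SCD overlapped, at 1116 to 2971 CPM and 900 to 2951 CPM. Effects of SCD were 0.99 (SE 0.26) and -0.25 (SE 0.33), with an interaction of 1.23 (SE 0.37). ACLY, which makes cytosolic acetyl-CoA, was lower in all PFA livers, at 86.2 to 118 CPM against 123 to 177 CPM, with effects of 0.19 in the ileum and -0.53 in the liver. ELOVL6 and ACACA gave 0.60 and 0.29 in the ileum and -0.15 and -0.29 in the liver. With all 12 liver libraries the liver medians were 0.00649 for cholesterol and -0.0266 for fatty acid genes, both with the sign turned. In the ileum PFA 95, which held fat markers there, was highest for the fatty acid list, at a mean of 5.15 log2 CPM. Without that pig the ileum medians were 0.128 for fatty acid and 0.165 for cholesterol genes, both still positive. The part of fat tissue in these values was not tested beyond leaving out that pig.

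Mitochondrial and protein-folding genes were also mostly higher in the ileum and not in the liver. In the respiratory chain list 37 of 45 genes were higher in the ileum (median 0.136) and 17 in the liver (median -0.0125, or 0.00606 with DESeq2's scaling). COX5A, a subunit of cytochrome oxidase, gave 0.29 and 0.07, and NDUFS3 of complex I gave 0.24 and -0.22. In the heat shock list 14 of 18 genes were higher in the ileum (median 0.213) and 8 in the liver (median -0.024), with effects of 0.33 and -0.06 for the mitochondrial chaperonin HSPE1. In the endoplasmic reticulum stress list 21 of 25 genes were higher in the ileum (median 0.162) and 10 in the liver (median -0.0419). The chaperone HSPA5 gave 0.44 and 0.05, and its relative HYOU1 gave 0.28 and -0.51. For the proteasome 24 of 29 genes were higher in the ileum and 11 in the liver. The ileum medians of the respiratory chain, heat shock and endoplasmic reticulum stress lists stayed positive when any 1 pig was left out.

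Matrix and cell cycle genes were mostly higher with PFA in the liver. In the extracellular matrix list 26 of 31 genes were higher in the liver (median 0.189) and 15 in the ileum (median -0.0407). The collagen VI genes COL6A2 and COL6A1 gave 1.04 (SE 0.34) and 0.83 in the liver and -0.26 and -0.21 in the ileum. COL6A2 has a GC content of 65%, and its interaction of -1.45 became -1.07 after the GC correction. In the cell cycle list 24 of 25 genes were higher in the liver (median 0.299) and 19 in the ileum (median 0.14). MCM5, a replicative helicase subunit, gave 0.97 in the liver and -0.42 in the ileum, and the related MCM6 gave 0.50 and 0.15. Without control 80 the liver medians were 0.0396 for matrix genes (13 of 31 lower) and 0.429 for cell cycle genes (0 of 25 lower), and with a term for the title form PL the matrix median was 0.543. The liver of control 80 stood apart in cell type markers and in quality. It had 23.5 read pairs on no gene per 100 on genes, against 7.54 to 14.6 in the other livers of these pigs. The endothelial gene KDR was at 20.3 CPM against 125 to 191 CPM in the other control livers, CDH5 at 22.5 against at least 96.1 CPM, and the stromal collagen COL3A1 at 329 against 631 to 1449 CPM. Of the other fibroblast and stellate cell markers, COL1A2, PDGFRA, PDGFRB, LRAT and RGS5 were also lowest of the control livers in control 80. COL1A1, DCN and DES lay within the range of the other control livers, and LUM was highest, at 4.39 CPM against at most 3.78 CPM. The 6 endothelial markers in the files summed to 149 to 772 CPM in control and 338 to 694 CPM in PFA livers, and the 10 of fibroblasts and stellate cells to 938 to 2704 and 1764 to 2970 CPM. Their part in the matrix and cell cycle values was not tested beyond leaving out that pig.

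**Figure D4:**
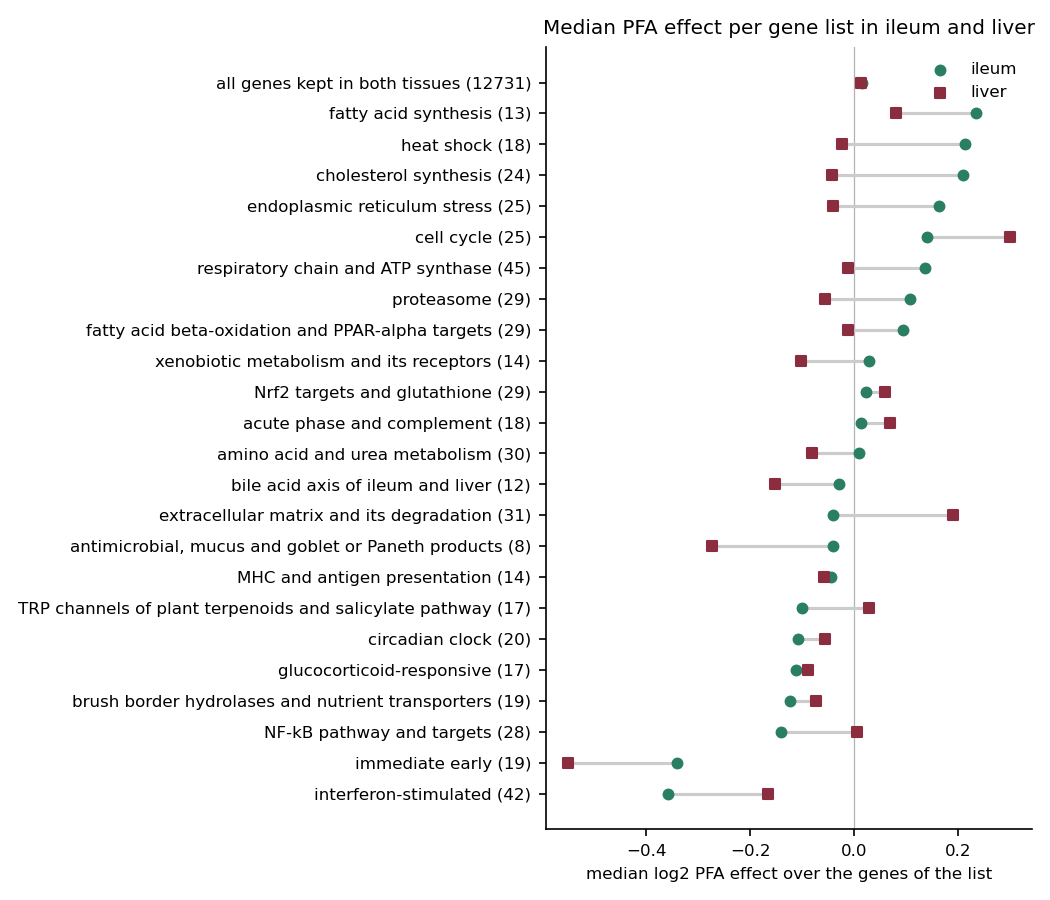
Median PFA effect (log2 fold change) of each of 23 gene lists in the ileum and in the liver, with all genes kept in both tissues for comparison. The lists of lipid synthesis, respiratory chain and chaperones lie right of 0 in the ileum and near 0 in the liver, interferon and immediate early lists lie left of 0 in both, and matrix and cell cycle lists are highest in the liver.

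**Figure D5:**
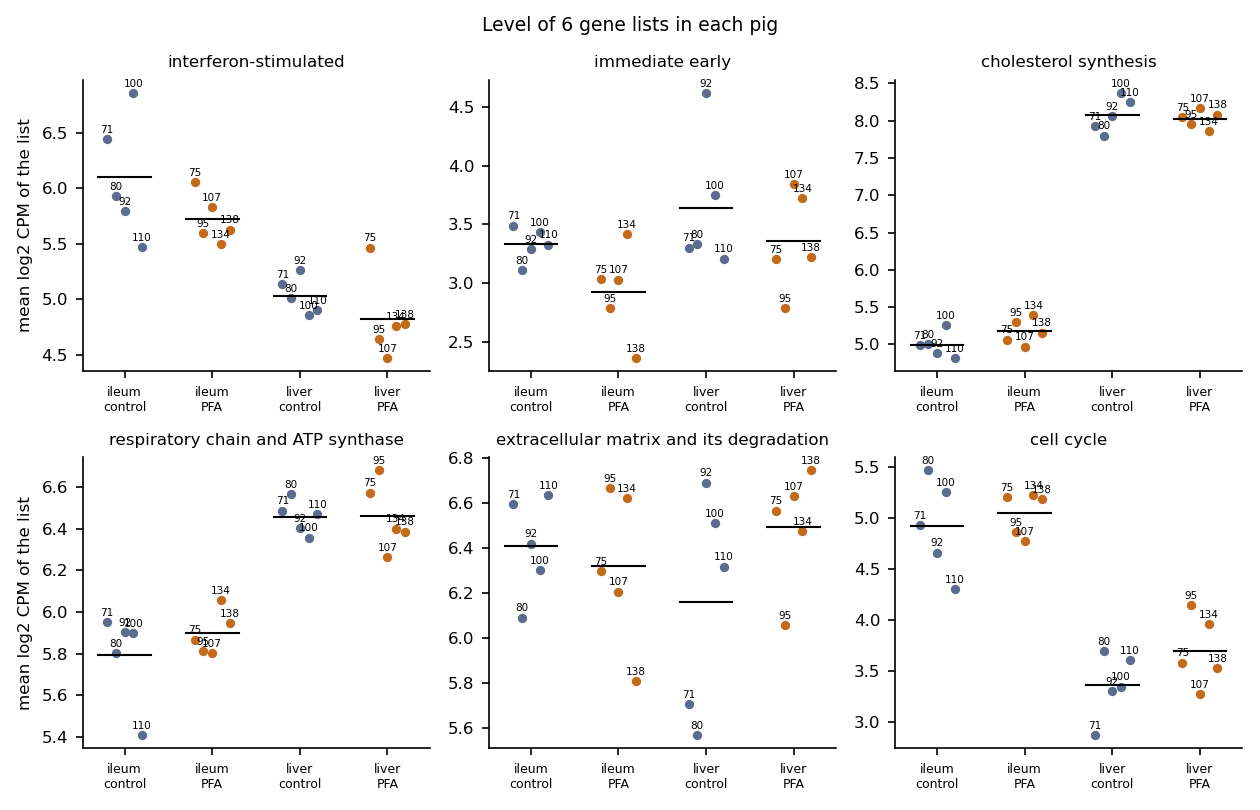
Mean log2 CPM of 6 gene lists in each pig's ileum and liver, with a point per pig. The diets overlap in all 6 lists in both tissues, with control 92 highest of the livers for immediate early genes.

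The remaining lists include those that the blend of plant compounds made of interest. Of the bile acid genes shared by both tissues, 6 of 12 were lower in the ileum (median -0.0298) and 9 in the liver (median -0.153), and KLB, the co-receptor for FGF19, gave 0.70 (SE 0.26) in the ileum and -0.05 (SE 0.25) in the liver. Of 14 xenobiotic genes 5 were lower in the ileum and 8 in the liver, among them NR1I2, the pregnane X receptor, with effects of 0.02 and -0.54. The aryl hydrocarbon receptor target CYP1A1 was at 0.0375 to 0.659 CPM in the ileum and 62.9 to 337 CPM in the liver, with overlap in both. Of 29 Nrf2 targets 11 and 14 were lower, with effects of -0.40 in the ileum and 0.11 in the liver for the ferritin light chain FTL. Of 29 genes of beta-oxidation 10 and 16 were lower, and of 30 genes of amino acid and urea metabolism 15 and 21, with the liver-enriched arginase ARG1 at 0.11 and -0.44. Brush border genes were lower for 13 and 11 of 19, with APOA1 at -0.65 and 0.38. Clock genes were lower for 11 and 10 of 20, acute phase genes for 8 and 7 of 18, mucus and antimicrobial genes for 4 and 6 of 8 (medians -0.0412 and -0.273), and genes of TRP channels and the salicylate pathway for 10 and 6 of 17. MUC13, a membrane mucin, gave -0.11 in the ileum and -1.08 in the liver.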

How the data were processed

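RNA from the ileum and liver of 10 pigs was sequenced with a stranded poly(A) kit. The authors aligned the reads to Sscrofa11.1 with STAR 2.6.1d and deposited whole-number counts of read pairs per Ensembl gene made with HTSeq, without normalization. The annotation release and strand option are not given in the sources used here. Samples were grouped by tissue and diet from the library labels, and the members and gene lists were chosen with earlier results of these data known.

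Counts of the 20 libraries were scaled by TMM, filtered with filterByExpr and tested with edgeR 4.0.16 in R 4.3.3 (quasi-likelihood test, two-sided, Benjamini-Hochberg, threshold 0.05). The interaction fit held a level per pig, so its value need not equal the difference of the effects from the single-tissue fits. The common effect was tested with limma 3.58.1 (limma-trend on log2 CPM, prior count 2), and DESeq2 1.42.0 was an alternative. The tests of the interaction and of the common effect were checked on simulated counts, and the single-tissue tests were not. GC content came from Sscrofa11.1 and was known for 78.4% of the genes of the interaction, too few for a check of all of them, and for 81.4% of those kept in both tissues. Promoters came from RefSeq.

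The pig number in the library titles marks the same animal, so it pairs the libraries. Deviations of a pig's 2 libraries from their group means correlated at -0.254 to 0.542 (median 0.142) over all genes. There the own pig was highest in 6 of 10 pigs within the diet and in 4 of 10 among all pigs. Over the 59 genes with an SD over 1 in both tissues, deviations from the tissue mean, which keep diet differences, were compared instead. They correlated at 0.735 to 0.927, highest with the own pig in 9 of 10. With the replicate block, and without it (0 genes), the interaction gave the same count of calls.

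Genes were named by fixed rules: the 10 smallest p of the interaction among genes with a symbol and the 6 smallest of the common effect, genes the study named for PFA in one tissue (without PLPPR2 and RF00231, which had no symbol here), and from each list the member with the smallest interaction p, with a second under 0.05. A gene that these rules name is not reported here. Genes outside the rules were chosen after their values were seen. Alternatives were another test or scaling, other filters, a GC correction, no block, all 12 liver libraries, terms for sex or title form, and leaving out each pig. Counts of 3 or fewer were taken as the floor. The fold changes and p-values of the authors were not used.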

Additional observations from a re-analysis of the deposited data

Results flagged for a closer look

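In 16 of 140 groups of 5 pigs tested, 1 pig lay so far from the other 4 that its gap exceeded 0.71 of the range of the group, where chance alone passes about 1 group in 20.

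In the ileum, PFA 134 was far above the other PFA pigs in 6 genes. It stood at 16.4 CPM for ID1 (others up to 7.34), 31 CPM for JUN (others up to 17.3), 13.5 CPM for TRAF2 (others up to 3.17), 23 CPM for IRF7, 44.5 CPM for GSDMD (others up to 9.04) and 6.48 CPM for TOLLIP (others up to 1.03). Of the ileum libraries it also had the highest slope of expression on GC content, 0.373 on the log2 scale per 10 percentage points, and its part in these values was tested only by the GC correction. PFA 95 was highest for PON3, at 4.34 CPM against 1.11 to 2.02. PFA 107 was highest for MFSD2A, at 59.8 CPM against 47.6 to 49.8. Control 80 was highest for CEP85, at 24.4 CPM against 16.3 to 18. Control 110 was lowest for NOTUM, at 0.572 CPM against 1.18 to 1.39, and lowest for the mean log2 CPM of respiratory chain and ATP synthase genes, at 5.41 against 5.8 to 5.95.

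In the liver, control 80 was far above the other control pigs for MTMR14, at 122 CPM against 74.2 to 77.9, for NOTUM, at 74.4 CPM against 22.1 to 33.9, and for DEF6, at 10.7 CPM against 6.13 to 7.36. PFA 95 was highest for UCHL5, at 62.2 CPM against 30.6 to 35.3, and for the mean log2 CPM of endoplasmic reticulum stress genes, at 7.2 against 6.74 to 6.84.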

How the results depend on the processing

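Of 1430 values of the named genes under the alternatives, 1419 kept their direction and 5 were called. The reversed ones were DEF6 in the ileum, at 0.11 after the GC correction and between 0.00697 and 0.114 (also 0.0135 and 0.0347) without some single pigs, and IRF7 in the liver, at -0.00501 after that correction, -0.102 with a term for the title form PL and between -0.101 and -0.0209 (also -0.0281 and -0.049) without some single pigs, of a full range from -0.101 to 0.567. The causes were not tested.

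With the replicate block or without it (0 genes), the interaction called no gene in edgeR. DESeq2 called 3 genes for the interaction, 4 in the ileum and 4 in the liver, the title form term 1 for the interaction (CLEC4G, adjusted p = 0.0146 in edgeR), and edgeR with no replicate block 1 for the common effect. In the ileum CLEC4G was at 4.38 CPM in control 80, at 0.0375 CPM in PFA 107 and at 0 in every other library. Genes at an unadjusted p under 0.05 numbered 259 in the ileum among genes with a GC value (90 higher and 169 lower, or 161 and 192 after the correction), 1639 in the liver with all 12 libraries, and 1297 for the common effect with the title form term. Leaving out each pig in turn gave 0 called genes for the interaction and the ileum, 0 to 2 in the liver (1 without control 71, 2 without PFA 75) and 0 to 2 for the common effect (2 without PFA 75). The unadjusted counts then ran from 471 (without PFA 75) to 951 for the interaction, 257 (without PFA 95) to 2027 (without PFA 134) in the ileum, 825 to 1318 in the liver and 405 (without PFA 95) to 1745 (without PFA 134) for the common effect, with 1167 without control 110 and 507 without control 80. Agreement over genes ran from -0.00562 to 0.189 in Pearson r, -0.0649 to 0.198 in Spearman rho and 48.6 to 59.8% in same sign.

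List medians were run under every alternative after the data were seen, as were a sex by tissue term and the GC-corrected pairing. Liver medians with all 12 libraries were 0.0884 for interferon, 0.00649 for cholesterol, -0.0266 for fatty acid, -0.0452 for respiratory chain and 0.0998 for endoplasmic reticulum stress genes. With the title form term they were 0.543 for matrix, 0.16 for cell cycle, -0.0675 for respiratory chain, 0.0496 for heat shock and -0.321 for immediate early genes. After the GC correction they were -0.102 for cholesterol and 0.0183 for respiratory chain genes in the liver and 0.111 for endoplasmic reticulum stress genes in the ileum. In genes with a GC value the uncorrected ileum medians were 0.0866 for respiratory chain and 0.123 for endoplasmic reticulum stress genes.

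Without each pig, medians in the ileum and then the liver ran from -0.44 to -0.1 and from -0.342 to -0.0455 for interferon, from -0.126 to 0.167 and from 0.0396 to 0.304 for matrix, from 0.0463 to 0.297 and from 0.172 to 0.429 for cell cycle, from 0.165 to 0.267 and from -0.102 to 0.0391 for cholesterol, and from 0.128 to 0.316 and from -0.0421 to 0.181 for fatty acid genes. They ran from 0.0835 to 0.176 and from -0.0655 to 0.0304 for respiratory chain, from 0.122 to 0.204 and from -0.15 to 0.138 for endoplasmic reticulum stress, from 0.149 to 0.271 and from -0.115 to 0.0521 for heat shock, and from -0.44 to -0.198 and from -0.714 to -0.129 for immediate early genes.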

Other observations

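The B cell signal in the ileum of control 80 was not seen in the liver of the same pig. PAX5, the transcription factor of B cell identity, was at 131 CPM there and at most 0.358 CPM in the other 9 ileum libraries, with 3.18 CPM in the liver of control 80. MS4A1, the gene of CD20, was at 87.5 CPM in that ileum and 3.89 CPM in the liver of the pig. These genes were chosen after their values were seen, and in the other pigs the liver was higher than the ileum for both genes, except MS4A1 in PFA 107 (1.57 CPM in the ileum and 1.53 CPM in the liver).

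Leaving out PFA 75 made edgeR call 2 genes in the liver, ENSSSCG00000038068 and ENSSSCG00000038557, neither with a symbol, and limma called the same 2 for the effect common to both tissues.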
